A study of Bubalus bubalis with 6 samples.

Results

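Nuclear receptors are transcription factors, many of which are switched by small lipophilic ligands such as hormones, vitamins, fatty acids and sterols. The 37 genes described here are members of this superfamily, found in the gene table by their symbols: the vitamin D receptor gene VDR, the retinoid X receptors with their dimer partners, the steroid hormone receptors, and orphan and clock receptors with no established ligand or with a role in the circadian clock. Of the 37 symbols, 36 have a row in the table of 24616 genes. The exception is the progesterone receptor PGR, for which no row carries the symbol.

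The cells were primary muscle stem cells (MuSCs) of the water buffalo, taken by enzyme digestion from fetal longissimus muscle. The 3 GM samples were kept proliferating in growth medium with fetal bovine serum, and the 3 DM samples were switched to a medium with little horse serum to induce myogenic differentiation, so medium and stage changed together and cannot be told apart. No sorting step or genetic change is given for either group. PolyA-selected RNA was sequenced from each sample, and the labels do not say whether the samples of a group came from separate cultures or animals, so the p-values below measure the spread between these samples, which may be technical.

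Each sample held between 35615864 and 40305237 counts on genes. Markers of the labelled cell type were present: PAX7, a transcription factor of muscle stem cells, had a mean of 18.5 CPM in GM and 9.77 CPM in DM, and MYOG, a driver of terminal muscle differentiation, had 53.0 CPM in GM and 167 CPM in DM. The DM samples differed more among themselves than the GM samples did. Chi-square per degree of freedom over all genes was 40.5 to 41.4 for pairs with DM replicate 3, 11.7 for the other DM pair and 6.22 to 10.6 for the GM pairs, so DM replicate 3 stood apart. The summed level of 10 myogenic markers was 5698 and 6004 CPM in the other DM samples and 7958 CPM in DM replicate 3, whereas the summed level of 10 fibroblast and fibro-adipogenic markers was 123618 and 113055 CPM against 97703 CPM. Most of the myogenic sum was DES, MYH3 and ACTA1, while PAX7 and MYOD1, from the same list, were lowest in DM replicate 3. Values without DM replicate 3 are given beside each receptor gene whose adjusted p crosses 0.05 without it, and values of a group are written in the order of replicates 1, 2 and 3.

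In the cell, the retinoid X receptors RXRA, RXRB and RXRG serve as shared partners: VDR, the retinoic acid receptors, the peroxisome proliferator-activated receptors (PPARs), the thyroid hormone receptors and the liver X receptors bind DNA as a pair with one of them. Steroid receptors bind DNA as pairs of their own kind. In skeletal muscle, thyroid hormone, glucocorticoids and fatty acid sensors of this superfamily are known regulators of fibre type, protein turnover and oxidative metabolism, and PPARG is best known as the driver of adipocyte formation.

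DM was compared with GM to ask which receptor genes differ between proliferation and differentiation. Of the 36 listed genes, 33 had at least 10 counts over the 6 samples and were tested. A gene was called when its log2 fold change was above 1 in either direction, which is a 2-fold change, and its adjusted p was under 0.05 in edgeR's quasi-likelihood test with Benjamini-Hochberg adjustment over all 15576 genes tested. By that rule 9 receptor genes were called, which is 27.3% of those tested, against 25.3% of all genes. VDR, THRB and NR1H4 rose, or 3 genes (9.09%) against 15.0% of all genes, and PPARG, ESR2, ESRRB, NR4A3, NR4A1 and NR2F1 fell, or 6 genes (18.2%) against 10.3% of all genes. All 3 samples of a group lay on the same side of the other group in each of these 9 genes, a share of 27.3% against 24.8% of all genes that were called without overlap. Regardless of the call, the samples did not overlap in 20 receptor genes (60.6%), against 68.8% of all genes. The receptors' shares of calls and of separated samples were thus close to those of the whole table, and the median log2 fold change was 0.08 over the receptors and 0.03 over all genes.

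By assigned role, the group of retinoid X receptors and partners made up 15 of the tested genes. It held all 3 genes that rose and 1 that fell (PPARG). The steroid receptors made up 3 tested genes, of which 1 fell (ESR2). The orphan and clock receptors made up 15 tested genes, of which 4 fell and 0 rose. Among all genes 15.0% were called higher and 10.3% lower. The roles were assigned for this report, with each receptor in 1 group alone, whether or not it can also pair with a retinoid X receptor. The groups are small, and a difference between them was not tested.

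**Figure D1:**
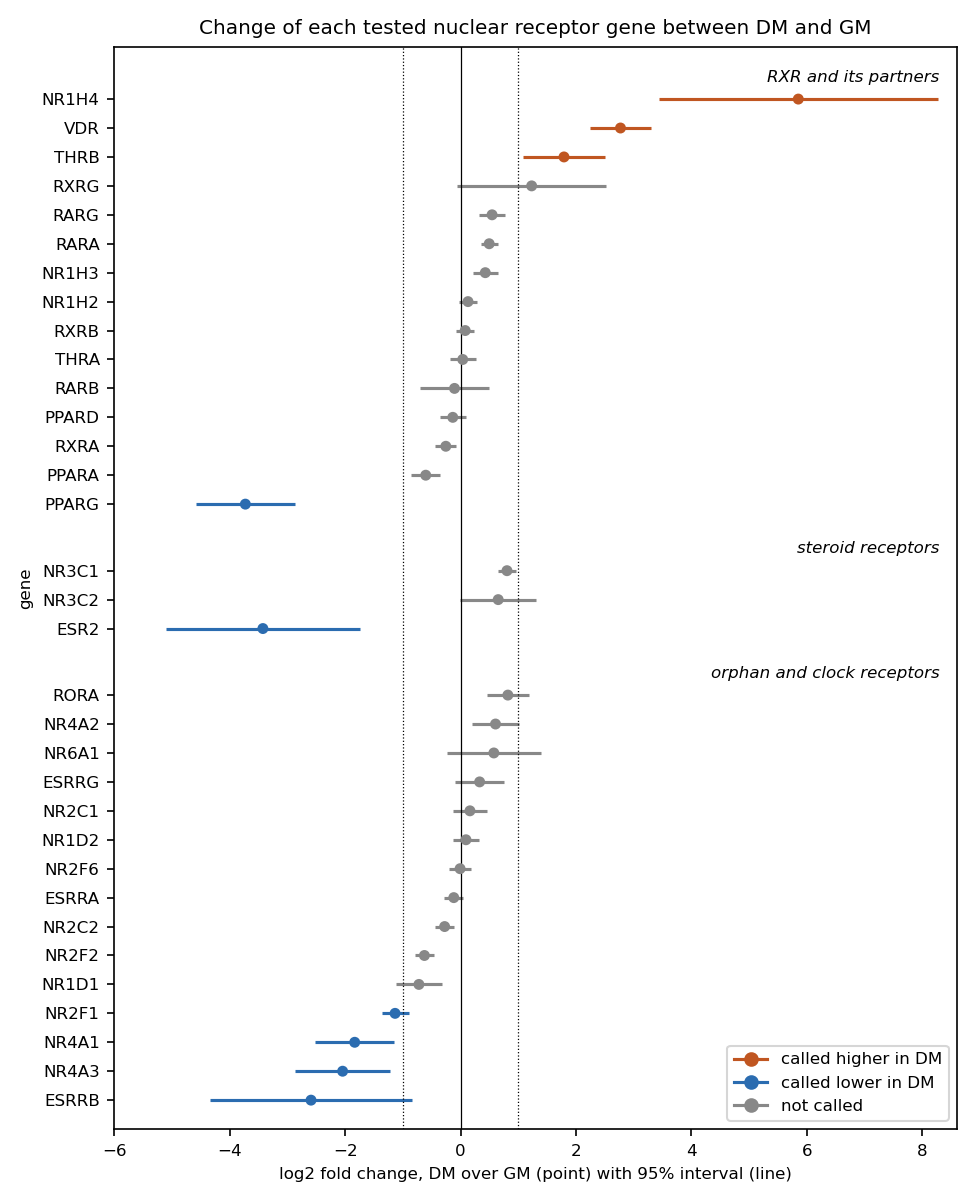
Log2 fold change of the 33 tested receptor genes in DM over GM (x axis, points) with 95% intervals (lines), grouped by role; dotted lines mark a 2-fold change. The 3 genes called higher (orange) are all in the group assigned as retinoid X receptors and partners, led by NR1H4 at 5.85 with a wide interval and VDR at 2.77. PPARG at -3.73 is the lowest of the 6 genes called lower (blue).

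VDR is the receptor for calcitriol, the active form of vitamin D (chromosome 5, 32550521 to 32606144, plus strand, in the coordinates of the deposited table, which names no genome build). The study's methods name a buffalo assembly, but the table carries cattle gene identifiers and chromosome numbers up to 29, so its positions cannot be tied to that assembly. It had 607, 552 and 626 counts in the GM samples and 4739, 3609 and 2370 counts in the DM samples. After scaling to the depth of each sample with TMM factors (CPM), this was 14.6, 13.3 and 16.5 in GM and 140, 98.6 and 64.0 in DM. The lowest DM sample was well above the highest GM sample, while the DM samples ranged over 2.19-fold among themselves, with DM replicate 3 lowest. Expression rose from 14.8 ± 1.63 to 101 ± 38.2 CPM (SD, n = 3 each), a log2 fold change of 2.77 with a standard error of 0.24 and a 95% interval of 2.25 to 3.30 (edgeR adjusted p = 2.43e-06), or 6.82-fold. The value was 3.02 without DM replicate 3 and 2.47 to 3.02 when any 1 sample was left out. Over the DM samples, VDR had the same order as the summed fibroblast and fibro-adipogenic markers (DM replicate 1 highest). That was the reverse order of the summed myogenic markers. Over the GM samples, VDR instead had the order of the myogenic sum (3102, 2789 and 3336 CPM). The fibroblast sum, mostly collagen genes, had another order in GM (36200, 35453 and 35929 CPM). Both sums were higher in DM, and the part of cell composition in the VDR difference was not tested. In bulk samples, fewer cells of a type and less RNA per cell cannot be told apart.

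Levels of different genes can be set side by side only per length, as reads scaled by gene length and sample depth (RPKM). On that scale VDR ranked 12 of the 36 receptors in GM, with 10.9 ± 1.20 RPKM, and 1 in DM, with 69.1 ± 25.2 RPKM (SD, n = 3 each). In DM the next receptor, NR1H2, had 31.8 ± 1.65 RPKM. VDR held 3.76%, 3.27% and 4.14% of the summed RPKM of the receptors in the GM samples and 25.8%, 20.5% and 14.3% in the DM samples. The summed RPKM of all receptors was 286 to 298 in GM and 307 to 367 in DM. Without VDR it was 276 to 288 in GM and 263 to 272 in DM, so the higher total in DM was carried by VDR.

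**Figure D2:**
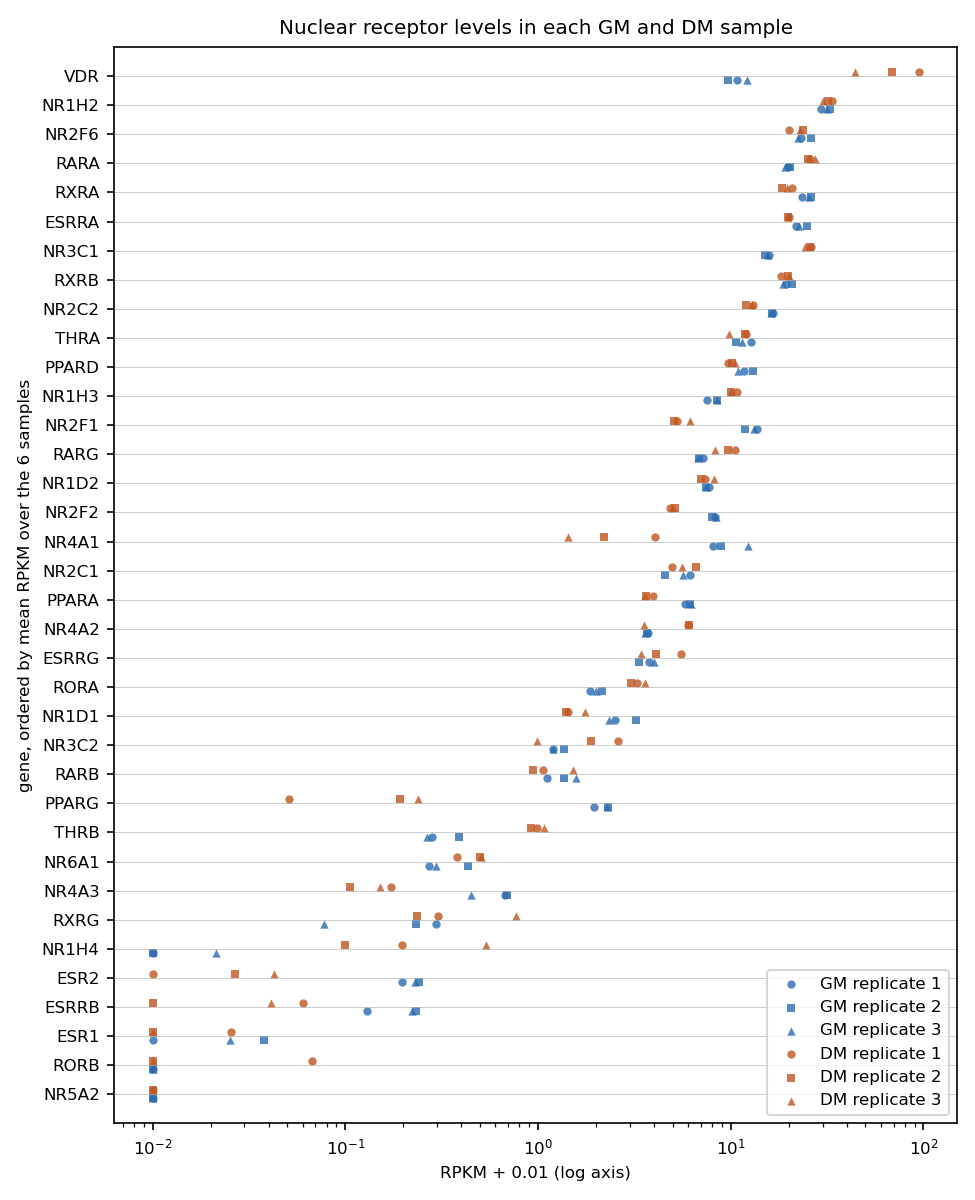
RPKM of the 36 listed receptor genes in each sample on a log axis, with 0.01 added so that samples at 0 can be drawn; genes are ordered by their mean over the 6 samples, GM in blue and DM in orange, with a marker shape for each replicate. VDR moves from about the level of THRA in GM (10.9 RPKM) to the top of the family in DM (69.1 RPKM), whereas abundant receptors such as NR1H2, NR2F6 and RXRB have overlapping GM and DM samples.

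In GM the most abundant receptors were NR1H2 (31.1 ± 1.69 RPKM), RXRA (25.01 ± 1.44), NR2F6 (23.9 ± 1.94), ESRRA (23.1 ± 1.57), RARA (19.8 ± 0.640) and RXRB (19.6 ± 1.17; SD, n = 3 each). RXRA, NR2F6 and ESRRA lay within their spread of each other, as did RARA and RXRB. In DM, VDR and NR1H2 were followed by RARA (26.1 ± 1.10 RPKM), NR3C1 (25.3 ± 0.962), NR2F6 (22.2 ± 1.98), ESRRA (19.9 ± 0.220) and RXRA (19.6 ± 1.13), with RARA and NR3C1 within their spread of each other and likewise ESRRA and RXRA. Of the 36 listed genes, 26 had a mean of at least 1 RPKM over the 6 samples, 11 had at least 10 RPKM and 10 were under 1 RPKM.

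Among the partners of the retinoid X receptors, PPARG fell most. It lies on chromosome 22 (57366997 to 57489590, minus strand) and had 160, 191 and 172 counts in GM and 3, 14 and 18 counts in DM. In CPM this was 3.86, 4.59 and 4.54 against 0.0888, 0.383 and 0.486, so the groups were separated and DM replicate 1 was lowest. Expression fell from 4.33 ± 0.408 to 0.319 ± 0.206 CPM (SD, n = 3 each), a log2 fold change of -3.73 with a standard error of 0.39 and a 95% interval of -4.59 to -2.87 (edgeR adjusted p = 1.10e-05), or 13.3-fold lower. Leaving out DM replicate 3 gave -4.14, and leaving out DM replicate 1 gave -3.30. PPARG was a minor receptor in both groups, at 2.17 ± 0.200 RPKM in GM and 0.150 ± 0.0977 RPKM in DM. It reached 1 RPKM in the GM samples alone. The study counted genes as reliably expressed from 1 RPKM in more than 50% of samples, and PPARG missed that bar.

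No tested adipocyte marker was called lower beside PPARG. Of 8 tested adipocyte markers 2 rose (CIDEC and FABP4) and 0 fell, while 15.0% of all genes were called higher and 10.3% lower. The list is small, and a difference from all genes was not tested. FABP4 was scarce, with 0, 1 and 1 counts in GM and 15, 16 and 13 counts in DM. The summed level of the adipocyte markers was 48.5 to 52.7 CPM in GM and 64.5 to 67.0 CPM in DM. Most of that sum was ADIPOR2 (26.4 CPM in GM and 32.1 CPM in DM) and PNPLA2 (18.8 and 23.9 CPM), so it mainly follows these genes. The defining hormone genes were near 0. ADIPOQ, which encodes adiponectin, had 0.123 CPM in GM and 0.200 CPM in DM, and LEP, which encodes leptin, had 5 counts in all 6 samples together. The other PPAR genes changed less. PPARA, an activator of fatty acid oxidation, passed the adjusted p threshold at 11.4 ± 0.503 to 7.48 ± 0.526 CPM, a log2 fold change of -0.60 (edgeR adjusted p = 0.000885), which is under 2-fold. PPARD, a fatty acid sensor expressed in most tissues, had 15.7 ± 1.53 and 14.3 ± 0.454 CPM, with a 95% interval of -0.36 to 0.09 on the log2 scale. By RPKM, PPARD made up 59.0% ± 2.56 of the PPAR subfamily in GM and 72.3% ± 1.37 in DM, and PPARG made up 10.8% ± 0.880 and 1.07% ± 0.680 (SD, n = 3 each).

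THRB, the thyroid hormone receptor gene best known from liver and pituitary, was scarce and rose (chromosome 27, 41695665 to 41771738, plus strand). It had 15, 21 and 13 counts in GM and 48, 47 and 56 counts in DM, so the DM samples lay close together and all above GM. Expression rose from 0.403 ± 0.0885 to 1.41 ± 0.115 CPM (SD, n = 3 each), a log2 fold change of 1.79 with a standard error of 0.32 (edgeR adjusted p = 0.00058). THRA, the main thyroid hormone receptor of skeletal muscle, had 26.9 ± 2.30 CPM in GM and 27.6 ± 3.19 CPM in DM, a log2 fold change of 0.04 with a 95% interval of -0.19 to 0.26. THRA still held 91.8% ± 1.44 of the subfamily's RPKM in DM, against 97.4% ± 0.733 in GM.

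NR1H4, the bile acid receptor (chromosome 5, 64763619 to 64815380, plus strand), was almost undetected in GM, with 0, 0 and 1 counts, and had 16, 8 and 48 counts in DM. All 3 DM samples were above GM, and DM replicate 3 held most of the reads. Pooled over the samples of a group, 72 counts in DM against 1 in GM gave a depth-corrected ratio of 81.1 with an exact 95% binomial interval of 14.1 to 3248, which covers counting error only. The log2 fold change of 5.85 with a standard error of 1.09 (edgeR adjusted p = 0.00078) was 4.92 without DM replicate 3 and 7.67 without GM replicate 3, the sample with the single count, after which GM is at 0 and the fitted value is no bound. Even in DM the level was 0.268 ± 0.229 RPKM. The liver X receptors of the same subfamily, which sense oxysterols, were abundant: NR1H2 had 61.7 ± 3.49 CPM in GM and 67.4 ± 4.30 CPM in DM (log2 fold change 0.13, edgeR adjusted p = 0.150, and 0.18 with an adjusted p of 0.0392 without DM replicate 3), and NR1H3 was 13.2 ± 0.941 and 17.8 ± 1.11 CPM, a log2 fold change of 0.43 (edgeR adjusted p = 0.00294).

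The retinoid X receptors themselves showed no called change. RXRA had 34.7, 38.9 and 38.01 CPM in GM and 33.6, 28.9 and 30.9 CPM in DM, a log2 fold change of -0.26 (edgeR adjusted p = 0.0184). That p was 0.0693 without GM replicate 2, 0.0666 without GM replicate 3 and 0.0799 without DM replicate 2. RXRB had 52.9 ± 3.25 and 56.0 ± 2.14 CPM, with a 95% interval of -0.08 to 0.24. RXRA made up 55.9% ± 1.74 of the subfamily's RPKM in GM and 49.7% ± 2.77 in DM, and RXRB 43.7% ± 1.48 and 49.2% ± 2.65 (SD, n = 3 each), so the pair was near parity in DM.

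RXRG, the scarce member of the trio, had 23, 18 and 5 counts in GM and 21, 17 and 58 counts in DM, so the groups overlapped and DM replicate 3 stood above the rest. Its log2 fold change was 1.23 with a standard error of 0.58 (edgeR adjusted p = 0.0883). It was 0.53 (adjusted p = 0.393) without DM replicate 3, and 1.55 with an adjusted p of 0.0485, past both thresholds, without DM replicate 2.

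The retinoic acid receptors RARA and RARG were higher in DM at less than 2-fold. RARA had 62.3, 64.2 and 60.1 CPM in GM and 88.1, 83.4 and 91.6 CPM in DM, a log2 fold change of 0.50 with a standard error of 0.065 (edgeR adjusted p = 6.26e-05). RARG had 19.6, 18.8 and 18.5 CPM in GM and 31.2, 27.8 and 24.1 CPM in DM, a log2 fold change of 0.55 with a standard error of 0.099 (edgeR adjusted p = 0.000654). The groups were separated in both genes. RARB, itself a classical target of retinoic acid signalling, was at 1.76 ± 0.306 and 1.63 ± 0.426 CPM with overlapping samples, and RARA held 70.5% ± 0.805 and 71.0% ± 2.37 of the subfamily's RPKM.

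**Figure D3:**
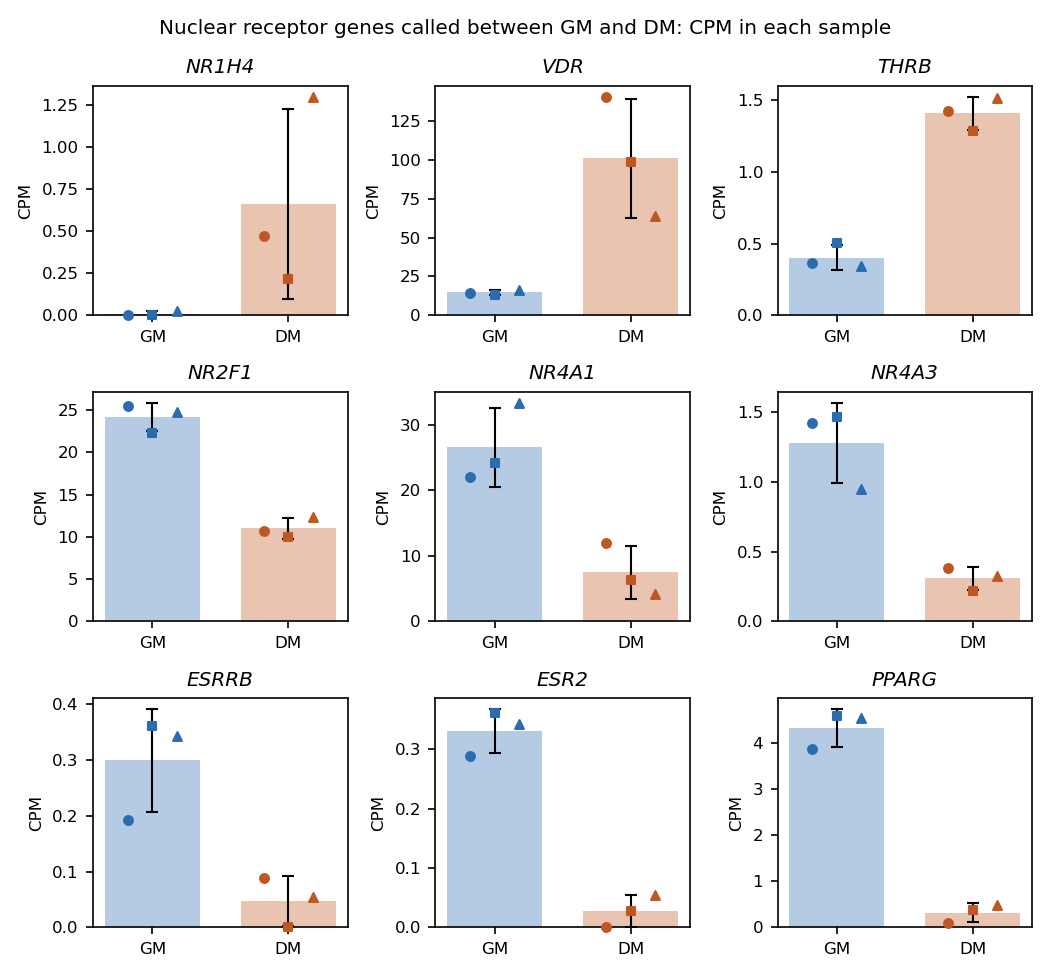
CPM in each GM and DM sample for the 9 receptor genes called between the groups, 1 panel per gene with its own linear axis from 0; bars are means, error bars SD over 3 samples, points single samples with a marker shape for each replicate. No panel shows overlapping groups. The axes differ widely, from VDR with up to 140 CPM to ESR2 and ESRRB with less than 0.4 CPM.

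Among the steroid receptors, NR3C1, the glucocorticoid receptor, was the abundant one. It had 36.3, 35.1 and 36.3 CPM in GM and 65.6, 62.5 and 59.8 CPM in DM. Both groups were tight and far apart, and expression was 1.75-fold higher in DM, a log2 fold change of 0.80 with a standard error of 0.067 and a 95% interval of 0.66 to 0.95 (edgeR adjusted p = 2.06e-06). The whole interval lay under 2-fold. NR3C2, the mineralocorticoid receptor, had 3.38, 3.87 and 3.40 CPM in GM and 8.11, 5.66 and 3.00 CPM in DM. DM replicate 3 was below every GM sample, and the log2 fold change of 0.65 (edgeR adjusted p = 0.0772) became 0.96 (adjusted p = 3.03e-05) without it.

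The estrogen receptors were nearly undetected. ESR2 (chromosome 10, 76707922 to 76757370, minus strand) had 12, 15 and 13 counts in GM and 0, 1 and 2 counts in DM, and the groups were separated. The pooled ratio of GM over DM was 11.8, from 40 against 3 counts, with an exact 95% binomial interval of 3.77 to 59.8. The log2 fold change was -3.42 with a standard error of 0.76 (edgeR adjusted p = 0.00242), and -4.25 without DM replicate 3. ESR1, which encodes the other estrogen receptor, had 0, 2 and 1 counts in GM and 1, 0 and 0 counts in DM, too few to test.

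NR4A1, NR4A2 and NR4A3 are immediate early genes whose products act without a known natural ligand. NR4A1 lies on chromosome 5 (27977007 to 27992869, minus strand). It had 22.1, 24.2 and 33.3 CPM in GM and 12.0, 6.28 and 4.14 CPM in DM. The groups were separated, with DM replicate 3 lowest. Expression fell from 26.5 ± 5.98 to 7.47 ± 4.06 CPM (SD, n = 3 each), a log2 fold change of -1.83 with a standard error of 0.31 (edgeR adjusted p = 0.000386), with -1.53 when DM replicate 3 was left out and -2.34 when DM replicate 1 was. NR4A3 (chromosome 8, 65341202 to 65373695, plus strand) had 59, 61 and 36 counts in GM and 13, 8 and 12 counts in DM, and fell by 2.04 on the log2 scale with a standard error of 0.37 (edgeR adjusted p = 0.000639).

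NR4A2 went the other way. It had 10.2, 10.2 and 9.92 CPM in GM and 18.03, 17.7 and 10.4 CPM in DM, a log2 fold change of 0.61 (edgeR adjusted p = 0.0142). DM replicate 3 lay just above the GM samples. Without it the log2 fold change was 0.83, while without DM replicate 1 or 2 the adjusted p was 0.063 or 0.0545. The makeup of the subfamily differed between the groups: NR4A1 held 65.0%, 67.1% and 75.3% of its RPKM in GM and 39.7%, 26.2% and 28.0% in DM, and NR4A2 held 29.7%, 27.7% and 22.0% in GM and 58.7%, 72.6% and 69.3% in DM. NR4A1 was the leading member in every GM sample and NR4A2 in every DM sample.

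The COUP transcription factors NR2F1 and NR2F2, orphan receptors that mostly repress transcription, were both lower in DM. NR2F1 (chromosome 7, 95454540 to 95464057, plus strand) had 25.5, 22.3 and 24.7 CPM in GM and 10.7, 9.95 and 12.3 CPM in DM, and fell by 1.13 on the log2 scale with a standard error of 0.11 (edgeR adjusted p = 4.44e-06). NR2F2 had 24.1, 23.5 and 24.6 CPM in GM and 15.4, 15.7 and 15.6 CPM in DM, a log2 fold change of -0.63 with a standard error of 0.077 (edgeR adjusted p = 3.87e-05), under 2-fold. The samples of each group lay close together in both genes. Their relative NR2F6 had 35.9 ± 2.99 and 35.7 ± 2.59 CPM, with a 95% interval of -0.20 to 0.18 on the log2 scale. NR2F6 thereby held 53.0% ± 3.23 of the subfamily's RPKM in GM and 67.9% ± 1.83 in DM, and NR2F1 28.7% ± 2.48 and 16.8% ± 1.67.

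**Figure D4:**
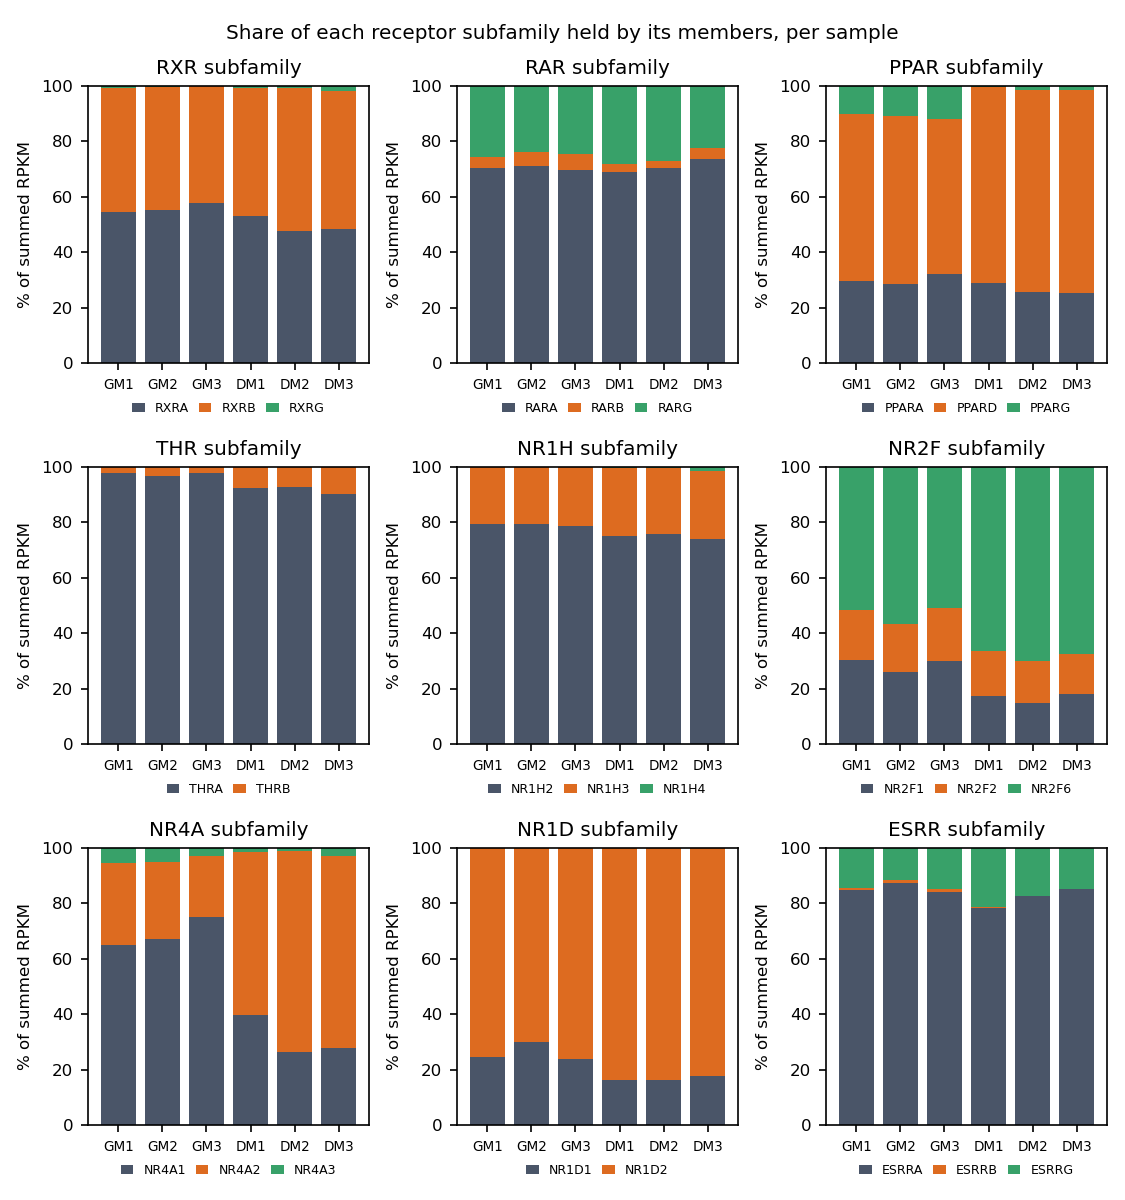
Share of the summed RPKM of 9 receptor subfamilies held by each of its members in every GM and DM sample (stacked bars, y axis in percent). In the NR4A subfamily NR4A1 goes from 65.0% to 75.3% in GM down to 26.2% to 39.7% in DM and NR4A2 takes the larger share, whereas in the RAR subfamily RARA stays between 69.1% and 73.7% in all 6 samples.

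Over the 13 subfamilies with at least 2 detected members, 27 shares were compared between GM and DM, and 16 did not overlap. With 3 samples against 3, the exact two-sided permutation test cannot give a p below 0.1. That was the p of each of the 16 shares, 0.169 after Benjamini-Hochberg adjustment over the 27, so none reached the threshold. The shares of the ESR and ROR subfamilies rest on a few counts of their minor members.

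The estrogen-related receptors are orphan receptors tied to mitochondrial metabolism. ESRRA, the abundant one, had 46.2 ± 3.23 CPM in GM and 42.6 ± 1.24 CPM in DM (95% interval of the log2 fold change -0.28 to 0.04), and shares 46 bases with a gene on the opposite strand. ESRRG had 4.97, 4.42 and 5.30 CPM in GM and 7.93, 5.71 and 4.84 CPM in DM, with overlapping samples and a log2 fold change of 0.33 (edgeR adjusted p = 0.162), which was 0.49 (adjusted p = 0.0132) without DM replicate 3. ESRRB (chromosome 10, 88763705 to 88818475, plus strand) was scarce, with 8, 15 and 13 counts in GM and 3, 0 and 2 counts in DM. It fell by 2.59 on the log2 scale with a standard error of 0.79 (edgeR adjusted p = 0.0145), and by 3.30 without DM replicate 1.

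The clock receptors NR1D1 and NR1D2 repress, and RORA activates, through the same DNA elements. NR1D1 had 5.52, 7.11 and 5.17 CPM in GM and 3.43, 3.22 and 4.13 CPM in DM, a log2 fold change of -0.72 (edgeR adjusted p = 0.00532). RORA had 2.82, 3.24 and 3.03 CPM in GM and 5.39, 4.86 and 5.81 CPM in DM, a log2 fold change of 0.82 with a standard error of 0.16 (edgeR adjusted p = 0.00119). The groups were separated in both genes and both differences were under 2-fold. NR1D2 had 12.8 ± 0.192 and 13.6 ± 1.09 CPM, with a 95% interval of -0.13 to 0.32. NR1D1 shares 1098 bases (41040926 to 41042023 of chromosome 19) with THRA on the opposite strand. Whether the counting used strand is not given in the sources used here, so reads from that stretch cannot be assigned with certainty.

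Among the remaining orphan receptors, NR2C2 had 34.1 ± 0.339 CPM in GM and 28.2 ± 1.72 CPM in DM, a log2 fold change of -0.28 (edgeR adjusted p = 0.0069). NR2C1 had 12.3 ± 1.82 and 13.8 ± 1.72 CPM, with a 95% interval of -0.14 to 0.46. NR6A1, known from germ cells, had 0.478 ± 0.129 and 0.714 ± 0.106 CPM, with a 95% interval of -0.24 to 1.40. RORB, a receptor of retina and brain, had 5 counts in DM replicate 1 and 0 elsewhere. NR5A2, a receptor of liver and pancreas, had 0 counts in all samples, which allows up to 3 counts per sample, or 0.0721 to 0.0888 CPM.

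Counting every size of change, 20 receptor genes (60.6%) had an adjusted p under 0.05, 9 of them higher and 11 lower in DM, against 63.0% of all genes, of which 31.6% were higher and 31.4% lower. Within 2-fold these were NR3C1, RORA, NR4A2, RARG, RARA and NR1H3 on the higher side, 6 genes (18.2%) against 16.6% of all genes, and NR1D1, NR2F2, PPARA, NR2C2 and RXRA on the lower side, 5 genes (15.2%) against 21.1% of all genes. For 18 receptor genes (54.5%) the whole 95% interval lay within 2-fold, against 52.0% of all genes. By sign alone, 18 receptors were higher and 15 lower in DM, against 51.3% and 48.7% of all genes.

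The spread between samples differed by group. Among the 26 tested receptors with at least 1 RPKM, the ratio of the highest to the lowest CPM in a group was above 1.5 for 1 gene in GM and for 7 in DM, with medians of 1.14 and 1.18. The 7 genes included VDR (2.19), NR3C2 (2.70), NR4A1 (2.90) and PPARG (5.48).

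In the table of mRNA transcripts, the 36 listed genes had 42 transcripts, of which 39 were tested. For the 31 genes with 1 transcript, its counts equalled those of the gene in every sample. Of the 39 transcripts, 13 were called (33.3%), against 25.6% of all transcripts: 3 were higher (7.69%), against 15.5%, and 10 lower (25.6%), against 10.1%. The excess over the gene count came from genes with several called transcripts. The 3 PPARG transcripts had log2 fold changes of -3.78, -3.76 and -3.74, the 2 of NR4A1 -1.82 and -2.05, and the 2 of NR2F1 -1.15 and -1.23. The PPARG transcripts summed to 1627 counts over the 6 samples against 558 for the gene, so their reads were shared and they are not independent measurements.

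The receptors act with coregulators, ligand enzymes and target genes, which were read from the same test in 11 lists holding 144 genes. Of the 113 genes tested, 39 were called (34.5%), 30 higher and 9 lower, beside the 25.3% of all genes, and the median log2 fold change was 0.36 beside 0.03. The lists were chosen with earlier results of these data known and no set test was run. These shares therefore only describe the listed genes and cannot show an excess over all genes.

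Among other nuclear receptors, 2 of 6 tested genes rose and 0 fell, and 1 rose without GM replicate 1 or without DM replicate 2. Of 14 coactivators 1 rose and 2 fell: PPARGC1A, which drives mitochondrial biogenesis with PPARs and estrogen-related receptors, rose from 0.275 ± 0.113 to 3.77 ± 0.577 CPM, while its relative PPRC1 fell by 1.09 and the arginine methyltransferase PRMT1 by 1.08 on the log2 scale. PPRC1 fell by 0.97 without DM replicate 2, which is under the fold threshold. NCOA1, a steroid receptor coactivator, was higher by 0.57 on the log2 scale without reaching 2-fold. Of 8 corepressors 1 rose, the vitamin D and thyroid hormone receptor corepressor HR (0.837 to 2.68 CPM, log2 fold change 1.68), and 0 fell. HR was counted in the thyroid hormone list as well. NCOR1 was at 289 ± 10.2 and 256 ± 3.35 CPM.

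For retinoids, 4 of 13 tested genes rose and 1 fell. STRA6, a membrane transporter of retinol, rose from 0.597 ± 0.211 to 62.0 ± 12.1 CPM (log2 fold change 6.69, edgeR adjusted p = 5.88e-09), and CRABP2, which carries retinoic acid to its receptors, rose from 53.8 ± 3.65 to 194 ± 26.0 CPM. RARRES1, named as a retinoic acid receptor responder, fell by 1.21 on the log2 scale, and RARRES2 rose by 1.03, which was 0.90 without GM replicate 1 and 0.79 without DM replicate 3. CYP26B1, which degrades retinoic acid, was at 0.896 ± 0.151 and 0.720 ± 0.191 CPM.

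For vitamin D, 1 of 9 tested genes rose and 1 fell. The classical VDR target CYP24A1, which breaks down calcitriol, had 2 counts in all 6 samples together and was not tested. CYP27B1, which makes calcitriol, fell from 2.003 ± 0.187 to 0.585 ± 0.296 CPM (log2 fold change -1.77, edgeR adjusted p = 0.00145). CDKN1A, a cell cycle inhibitor that is also a target of many other factors, rose from 53.6 ± 8.40 to 266 ± 25.6 CPM.

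Of 15 tested PPAR target genes 3 rose and 0 fell. Some genes of this list, among them CIDEC, FABP4 and ADIPOQ, were counted among the adipocyte markers as well. PLIN2, a lipid droplet coat protein gene, rose from 120 ± 3.11 to 391 ± 61.8 CPM (log2 fold change 1.70) and CIDEC from 2.67 ± 0.669 to 6.64 ± 0.934 CPM, while FABP4, an adipocyte fatty acid carrier, had 46 counts in all and rose from 0.0168 ± 0.0146 to 0.411 ± 0.0517 CPM. Of 8 tested targets of the liver X receptors 4 rose and 0 fell, with a median log2 fold change of 1.60. The cholesterol exporter ABCA1 rose from 117 ± 7.86 to 595 ± 96.7 CPM, APOE by 2.71, MYLIP by 2.20 and PLTP by 3.24 on the log2 scale. PLTP overlaps another gene on the opposite strand.

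For thyroid hormone, 6 of 9 tested genes rose and 1 fell, with a median of 2.16. That median is the value of a gene with 21 counts in all (edgeR adjusted p = 0.0488). The number of genes that rose was 5 with DESeq2, with the replicate block and when any sample but DM replicate 3 was left out. The genes that rose included KLF9 (log2 fold change 2.61), and ATP2A1 (4.38) and MYH7 (3.89), which encode a calcium pump and a myosin of muscle fibres and are also general genes of muscle differentiation. DIO2, which activates thyroid hormone, has no row by that symbol. For glucocorticoids, 7 of 13 tested genes rose and 2 fell. ZBTB16 rose from 0.0416 ± 0.0154 to 11.4 ± 1.34 CPM (log2 fold change 8.001), KLF15 by 3.60, TSC22D3 by 2.84 and FKBP5, a co-chaperone of the receptor and its classical target, by 1.69 on the log2 scale. FKBP4, another co-chaperone, fell from 447 ± 25.1 to 129 ± 6.15 CPM.

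Of 8 tested estrogen and progesterone targets 1 rose and 2 fell. The rise was lost (0 genes) with the replicate block and without GM replicate 1, 2 or 3 or DM replicate 1. GREB1, with 50 counts in all, was called at -1.63 (edgeR adjusted p = 0.0401), but its adjusted p was 0.123, 0.121, 0.0726, 0.0845 and 0.0768 without GM replicate 1, GM replicate 3, and DM replicates 1, 2 and 3. Of 11 tested targets of the clock receptors 1 rose, the output gene DBP (log2 fold change 1.88), and 0 fell. This count was 2 with DESeq2 and without GM replicate 3, DM replicate 2 or DM replicate 3. It was 3 without DM replicate 1, and without GM replicate 1 it was 4, of which 1 fell. ARNTL, the clock activator that NR1D1 represses, was at 6.59 ± 0.382 and 8.37 ± 0.910 CPM, a log2 fold change of 0.34 (edgeR adjusted p = 0.0445).

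**Figure D5:**
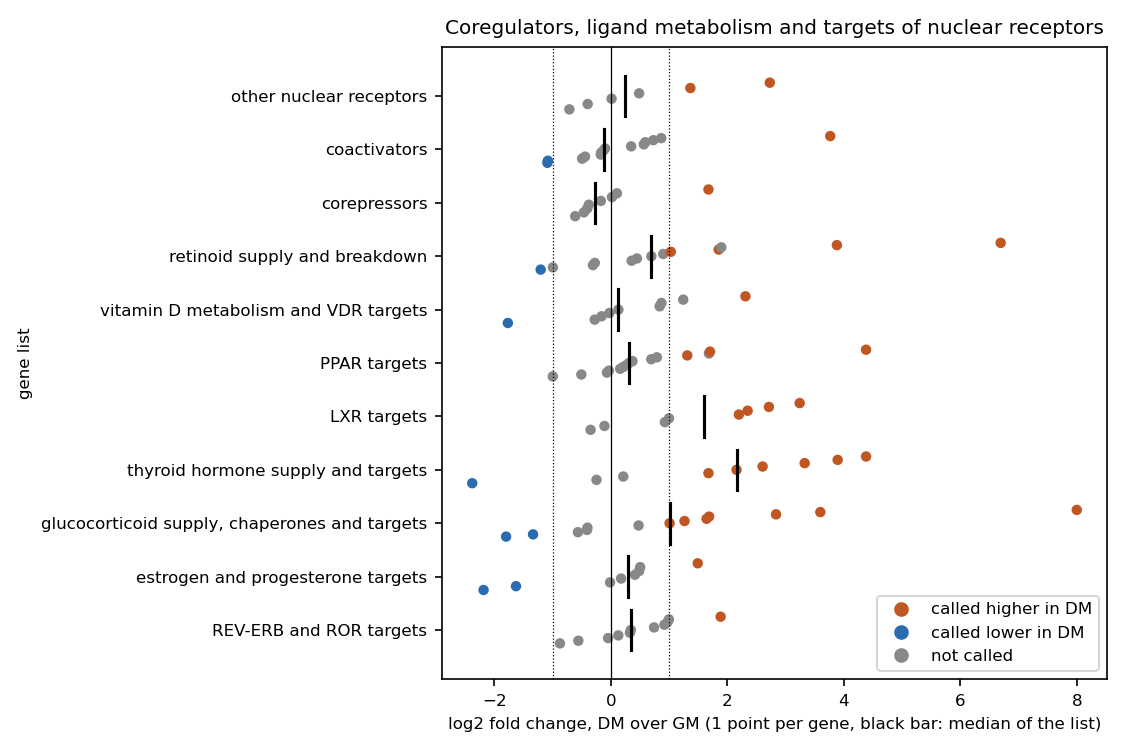
Log2 fold change in DM over GM (x axis) of each tested gene in 11 lists of coregulators, ligand metabolism genes and targets, 1 point per gene, with the median of each list as a black bar; orange and blue mark genes called higher and lower and dotted lines a 2-fold change. The lists of liver X receptor, thyroid hormone and glucocorticoid genes have medians of 1.60, 2.16 and 1.01, while coactivators and corepressors have medians of -0.11 and -0.28.

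Markers of other cells moved between the groups beside these genes. For comparison, 15.0% of all genes were called higher and 10.3% lower. Of 10 tested myogenic markers 6 rose and 1 fell, with a summed level of 2789 to 3336 CPM in GM and 5698 to 7958 CPM in DM. Of 9 tested fibroblast and fibro-adipogenic markers 7 rose and 0 fell, at 35453 to 36200 CPM in GM and 97703 to 123618 CPM in DM. Of 8 tested smooth muscle and pericyte markers 3 rose and 0 fell, at 259 to 273 CPM and 462 to 585 CPM. Endothelial markers (1 rose and 2 fell of 7 tested) summed to 11.5 to 14.1 CPM and 11.9 to 21.0 CPM, and blood and immune markers (1 rose and 1 fell of 5 tested) to 6.30 to 8.22 CPM and 7.46 to 13.8 CPM. Their defining genes PECAM1 (14 counts in all) and PTPRC (5 counts in all) were near 0, but other markers of these lists were not. TEK rose from 1.47 to 4.20 CPM and CD14 from 1.09 to 7.40 CPM. CDH5 fell from 0.534 to 0.110 CPM, VWF from 1.18 to 0.443 CPM and CD68 from 5.29 to 2.59 CPM. ERG, not called, had 8.64 CPM in GM and 9.79 CPM in DM. The part of these cell types in the receptor differences was not tested.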

How the data were processed

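The authors aligned PolyA-selected reads with HISAT2 to a buffalo genome, per the study's methods, and deposited tables with raw counts and RPKM per gene and per transcript. The program and strand setting of the counting are not given in the sources used here. The tables themselves name no build and carry cattle Ensembl identifiers, and coordinates are printed as they stand there. The deposited RPKM values equal counts divided by the listed length and by the sample's summed counts. Deposited lists of the authors' own comparisons hold their fold changes and p-values and were not used, nor was the table of non-coding RNAs.

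Samples were grouped by their labels, 3 GM and 3 DM. Counts were tested with edgeR 4.0.16 (R 4.3.3; TMM, features with at least 10 counts in total, glmQLFit and glmQLFTest, Benjamini-Hochberg over all features of a table). CPM used TMM-scaled totals (factors 1.03 to 1.04 in GM and 0.948 to 0.983 in DM). Genes were called as stated in the report. Scripts were tested on simulated counts. Receptors and gene lists were chosen with earlier results of these data known. Every listed receptor was described. Of each other list the first gene was named, whatever its call, and up to 4 called genes with the largest change among those with a mean of at least 1 CPM. Some genes that this rule names are not reported here. PAX7, MYOD1, DES, MYH3, FABP4, LEP, ADIPOR2, PNPLA2, ERG, CDH5 and VWF were named as markers after their levels were seen. So were the genes in the closing paragraph of values. Alternatives were DESeq2 1.42.0, other scalings, filters and thresholds, a replicate block, and leaving out each sample. Intervals and floors cover counting error only where they come from pooled counts or a count of 0.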

Additional observations from a re-analysis of the deposited data

How the results depend on the processing

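The 9 receptor genes called became 3 with the study's rule of at least 1 RPKM in more than 50% of samples, and 20 with no minimum fold change. The RPKM rule leaves 25 receptor genes to test. VDR, NR4A1 and NR2F1 stayed called, while PPARG, THRB, NR1H4, ESR2, ESRRB and NR4A3 fell short of it and were not tested. Under the same 2 alternatives, the 13 called transcripts became 5 and 25, and the 39 called pathway genes 25 and 77. Leaving out 1 sample at a time gave 9 to 10 receptor genes, 13 transcripts each time and 36 to 40 pathway genes. Shares without overlap were 17 to 21, against 16 with all samples. Leaving out a sample cannot create an overlap, so that number could not fall and is no check of the shares. Under the other alternatives the receptor count was 7 to 9: filterByExpr and a test against a 2-fold change gave 7, the latter without ESRRB (adjusted p = 0.105) and NR2F1 (adjusted p = 0.187). That test left 26 pathway genes. GREB1 also lost its call in DESeq2 (adjusted p = 0.107). RARRES2, at 1.03, was 0.93 with scaling by library size alone, under the fold threshold.

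No pairing by replicate number was visible: deviations from the group means of same-numbered GM and DM samples correlated at -0.0076, -0.022 and -0.010. The labels do not say whether same-numbered samples share an origin, and these correlations cannot settle it. With the replicate block, 9 receptor genes, 13 transcripts and 36 pathway genes were called, and GREB1 had an adjusted p of 0.0747.

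The sign changed only in genes with log2 fold changes near 0. Scaling by library size alone, which moved the median of all genes from 0.03 to -0.07, gave -0.017 for RXRB, -0.061 for THRA and -0.0046 for NR1D2. NR2F6 was 0.0029 with filterByExpr and 0.048 with the RPKM rule. Leaving out 1 sample at a time gave a range of -0.32 to 0.058 for RARB, -0.022 to 0.14 for THRA and -0.054 to 0.061 for NR2F6. Of the log2 fold changes of receptors recomputed, 438 kept their direction and side of the threshold, 11 changed sign, 2 lost a call and 1 (RXRG) gained one. Receptors removed by filterByExpr or the RPKM rule had no value there, so the calls lost that way are not in this tally. With at most 61 counts in any sample, NR1H4, ESR2, ESRRB, NR4A3, THRB and RXRG are limited by depth.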

Other observations

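Further pathway genes were called at low levels and are given as values, chosen after these were seen. NR0B1, an orphan receptor that lacks the usual DNA-binding domain, had 17, 3 and 9 counts in GM and 50, 61 and 62 counts in DM, a log2 fold change of 2.73 with a standard error of 0.47 (edgeR adjusted p = 0.000459). ALDH1A1, an enzyme that makes retinoic acid, had 3, 1 and 2 counts in GM and 31, 29 and 23 counts in DM (log2 fold change 3.88, adjusted p = 0.00011 in edgeR). CRYM, which binds thyroid hormone in the cytosol, had 14, 22 and 13 counts in GM and 4, 2 and 2 counts in DM (log2 fold change -2.38, edgeR adjusted p = 0.00452). The groups did not overlap in any of these 3 genes. PTGES3, a co-chaperone of steroid receptors, was abundant and fell from 334 ± 8.04 to 132 ± 9.07 CPM (SD, n = 3 each).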
